A study of Mus musculus with 14 samples.

Results

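The genes described here are the enzymes and carriers of glycolysis and of the pentose phosphate route in mouse cells at different stages of reprogramming. They were chosen as a fixed list of 32 symbols, and each gene was read from its brightest probe set, the one with the highest mean over the 14 arrays of the series. Of the 32, 28 had a probe set assigned to that gene alone, and all 28 passed the filter on dim genes. They are 28 of 12663 genes tested and of 18193 genes with a probe set of their own. Gpi1, Gapdh, Eno1 and G6pdx were not analysed here because no probe set was assigned to them alone. The 28 comprise 9 genes of upper glycolysis (hexokinases to triose phosphate isomerase), 6 of lower glycolysis, 5 at the pyruvate branch point, 4 carriers and 4 pentose phosphate enzymes.

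Glycolysis splits glucose into pyruvate and yields ATP without oxygen, and the pentose phosphate route branches off it to make NADPH and ribose for nucleotides. Most steps can be run by several isoenzymes, encoded by separate genes that differ in affinity, regulation or tissue, so a cell can change its isoenzymes without changing the pathway. Pluripotent cells and proliferating fibroblasts are both known for high glucose use, and the switch toward glycolysis is a known feature of reprogramming.

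Total RNA was hybridised to Affymetrix arrays, 1 array per sample, and all values are log2 signals, so a difference of 1 is a 2-fold difference. Cells that were being reprogrammed and stopped short of pluripotency are called partial induced pluripotent stem cells, or partial iPSCs. Clones 2B1 and 5C5 (female, C57BL/6) gave 1 array each, grown in medium with serum and leukemia inhibitory factor (LIF). Both clones were also turned into iPSCs by 2i, a pair of inhibitors of MEK and GSK3, and these 2i iPSCs gave 1 array per clone. ESCs, embryonic stem cells, came from a Nanog-GFP transgenic mouse (male, C57BL/6) and from the wild-type line EBRTcH3 (male, 129sv), both grown in LIF and serum, with 1 array per line. Embryonic fibroblasts (MEFs) of mixed sex from the Nanog-GFP mouse, grown without LIF, gave 1 array, with the embryo's age given as 12.5 dpc in one label and 13.5 dpc in the series text. The other 7 arrays held 2B1 partial iPSCs in LIF and serum, infected with retrovirus carrying no insert (empty vector), Cnot1, Cnot2, Cnot3, Trim28, the 3 Cnot genes together, or Nanog. All partial and 2i arrays are female and both ESC lines are male, so in comparisons with ESCs sex and cell state cannot be told apart, which bears most on Pgk1 and Pdk3, the members on the X chromosome. Each clone or line stands for 1 replicate, and p-values therefore rest on how far 2 clones or 2 lines lay apart. The spread was estimated over the 3 groups together, so the gap between the ESC lines also enters the comparison of 2i with partial iPSCs.

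The 7 arrays of cell states and the 7 transduced arrays had different value distributions (25th percentiles of 3.81 to 3.89 against 3.55 to 3.66), so tests and counts were kept within each set, and values of untreated 2B1 beside transduced arrays are a description across sets. Summed over 8 pluripotency markers, the log2 signal was 52.0 to 53.2 in partial iPSCs, 94.6 to 95.6 in 2i iPSCs, 97.2 to 99.3 in ESCs and 35.2 in MEFs. The sum hides a split among the markers in partial iPSCs. There Pou5f1 read 13.25 and 13.16 (4.23 in MEFs) and Tdgf1 11.73 and 13.34 (3.74 in MEFs). Nanog, Sox2, Zfp42 and Lin28a read 4.67 or less in both partial clones. Esrrb and Dppa5a read 6.10 to 6.87, with 6.98 and 5.73 in MEFs. Summed over 12 fibroblast markers it was 100.3 to 102.8 in partial iPSCs, 110.1 to 110.8 in 2i iPSCs, 56.2 to 56.4 in ESCs and 143.6 in MEFs, so the 2i iPSC arrays carried both marker sets. Summed over 6 endoderm markers it was 26.6 to 27.9 in partial iPSCs, with 0 of 6 averaging above the table median, and 31.8 to 33.6 in 2i iPSCs, with 4 of 6, against 27.8 to 29.8 in ESCs and 29.0 in MEFs. The part of fibroblast-type or endoderm-type RNA in the results was not tested. In bulk RNA, fewer cells of a type and less RNA per cell cannot be told apart. Gapdh could be followed only through the array's control probe sets, whose 3′ signal lay between 13.84 and 14.20 over the 7 state arrays. On the arrays labelled Cnot2, Cnot3, Trim28 and Nanog, the brightest probe set of the named gene read 9.69, 9.01, 11.97 and 3.12, against 10.01, 8.95, 11.98 and 4.11 with empty vector. None of these 4 was 2-fold higher on its own array, so those arrays are called by their labels here, and whether the probe sets lie within the introduced cDNA is not given in the sources used here. Cnot1 had no probe set of its own.

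The start regions of the members called in a comparison below are shown for the bases that a hypoxia-response or E-box search would read, because lactate dehydrogenase A is a textbook target of such elements. Each window holds 250 bases before and 50 bases after a RefSeq transcript start (GRCm38.p6), 5′ to 3′ on the gene's strand, and is the first entry of its gene. Capitals mark ACGTG or GCGTG on either strand, so the reverse forms CACGT and CACGC are also in capitals, and each CACGTG is read once on each strand. Slc2a3 had no entry. Ldha lies at chr7:46845554-46845853 on the + strand, Ldhb at chr6:142507908-142508207 on the - strand, Pfkfb3 at chr2:11553880-11554179 on the - strand, Pdk2 at chr11:95041322-95041621 on the - strand, and Eno3 at chr11:70656926-70657225 on the + strand.
Ldha: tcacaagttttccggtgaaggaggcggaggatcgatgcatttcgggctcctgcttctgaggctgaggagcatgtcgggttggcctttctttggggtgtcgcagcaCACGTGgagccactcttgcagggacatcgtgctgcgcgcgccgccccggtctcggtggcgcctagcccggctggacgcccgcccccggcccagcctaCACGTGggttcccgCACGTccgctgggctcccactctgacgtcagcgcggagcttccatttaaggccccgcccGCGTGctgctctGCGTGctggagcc
Ldhb: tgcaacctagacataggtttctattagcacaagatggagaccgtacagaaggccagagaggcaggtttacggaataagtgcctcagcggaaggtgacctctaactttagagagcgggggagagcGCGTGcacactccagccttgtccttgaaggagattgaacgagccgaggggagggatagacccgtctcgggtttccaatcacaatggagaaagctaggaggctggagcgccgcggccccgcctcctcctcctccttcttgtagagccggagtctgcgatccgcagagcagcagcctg
Pfkfb3: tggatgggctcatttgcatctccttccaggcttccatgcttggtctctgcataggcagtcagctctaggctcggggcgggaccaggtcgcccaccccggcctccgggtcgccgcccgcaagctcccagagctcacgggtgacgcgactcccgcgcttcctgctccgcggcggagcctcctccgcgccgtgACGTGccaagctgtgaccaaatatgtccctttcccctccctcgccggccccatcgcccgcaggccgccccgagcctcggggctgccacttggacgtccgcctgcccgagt
Pdk2: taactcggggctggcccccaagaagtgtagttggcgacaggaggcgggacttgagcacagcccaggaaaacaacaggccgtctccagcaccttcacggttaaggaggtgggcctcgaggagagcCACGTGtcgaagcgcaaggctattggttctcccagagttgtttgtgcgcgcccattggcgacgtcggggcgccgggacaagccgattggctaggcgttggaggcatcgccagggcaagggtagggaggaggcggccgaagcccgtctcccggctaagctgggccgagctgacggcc
Eno3: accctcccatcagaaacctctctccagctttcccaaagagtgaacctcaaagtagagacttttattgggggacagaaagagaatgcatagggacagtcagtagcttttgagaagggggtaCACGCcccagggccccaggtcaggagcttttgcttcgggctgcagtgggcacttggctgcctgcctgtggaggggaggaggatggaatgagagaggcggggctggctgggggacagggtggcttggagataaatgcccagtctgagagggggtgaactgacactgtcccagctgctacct

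The Ldha window held 7 matches, 5 of ACGTG and 2 of GCGTG, and 2 of its sites were CACGTG. The Pdk2 window held 2 matches of ACGTG, both from 1 CACGTG, the Pfkfb3 window 1 of ACGTG, and the Ldhb and Eno3 windows 1 of GCGTG each. Ldha, Pfkfb3 and Pdk2 also had a second entry, not shown, with 2, 4 and 0 matches. That of Pfkfb3 held 2 of ACGTG, both from 1 CACGTG, and 2 of GCGTG. Entries were found for 31 of the 32 listed genes, in 46 windows. Either motif was present in 76.1% of these windows and in 43.8% of the 32851 windows of all genes (ACGTG 43.5% and 19.6%, GCGTG 56.5% and 32.4%, CACGTG 10.9% and 7.15%). The member windows were also richer in G and C (median 60.67% against 52.67%) and in CG dinucleotides (median 20 against 7), which both motifs contain. A match describes the letters of the window and is not a binding site.

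Signals of the members varied widely over the 7 state arrays. The range from lowest to highest array had a median of 1.67 over the members and 1.42 over all genes tested, and it reached 1 or more in 25 of 28 members (89.3%, against 69.5% of all genes). Slc2a3 had the widest range, 4.71, followed by Eno2 with 3.54 and Eno3 with 3.09. Aldoa, Pgam1 and Tkt, which encode an aldolase, a phosphoglycerate mutase and transketolase, had ranges of 0.66 to 0.68 and were the members that moved least. MEFs were the highest array for 8 of the 28 members and the lowest for 7, near the shares over all genes tested (24.7% and 30.1%).

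**Figure D1:**
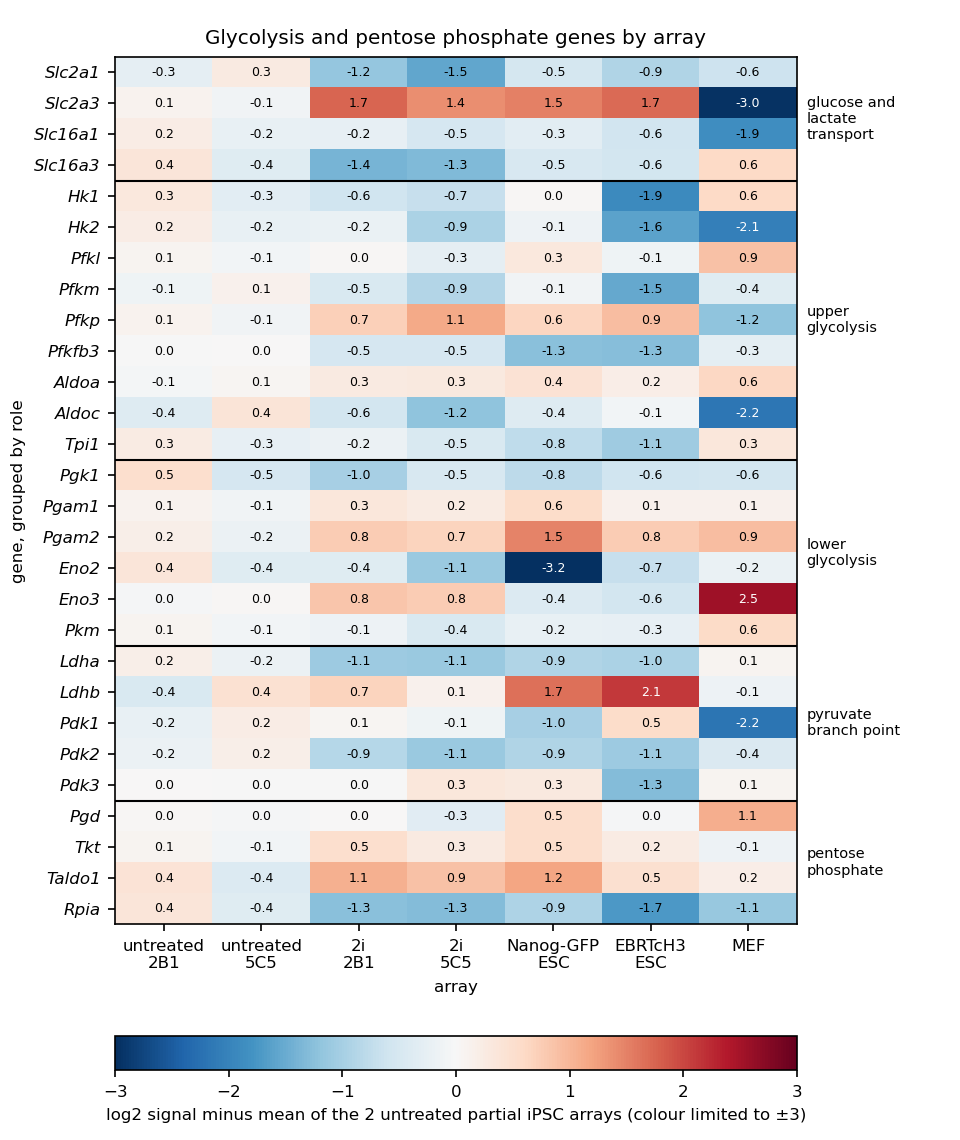
Log2 signal of the 28 members (rows, grouped by role) on the 7 state arrays (columns), each minus the mean of the 2 untreated partial iPSC arrays; colour runs from blue (lower) to red (higher) and is limited to 3 in either direction. The strongest colours are Slc2a3 (-2.97) and Eno3 (2.54) in MEFs and Eno2 (-3.18) in Nanog-GFP ESCs, and Slc2a3 is red on all 4 pluripotent arrays.

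The first comparison asked which genes of these pathways differed after 2i had turned partial iPSCs into iPSCs. Slc2a3, the high-affinity glucose transporter GLUT3, rose, and Ldha, the lactate dehydrogenase subunit that favours lactate formation, fell. These were 2 of 28 members past the test (7.14%), against 6.00% of all genes tested, so the share of members called lay near the background. No member of upper glycolysis (0 of 9), lower glycolysis (0 of 6) or the pentose phosphate route (0 of 4) passed limma's test, with 2, 1 and 2 of them at an unadjusted p below 0.05, and the count over the 28 at that level was 10. The share of all genes at an unadjusted p below 0.05 was not counted, so such counts, here and below, have no background. The median log2 difference was -0.30 over the members and 0.03 over all genes.

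Slc2a3 read 11.99 and 11.80 in the untreated clones 2B1 and 5C5, and 13.64 and 13.28 in the same clones after 2i. Both 2i arrays lay above both untreated arrays, and the rise of 1.56 (SE 0.22, limma adjusted p = 0.0233) is 2.96-fold, from 11.90 ± 0.13 to 13.46 ± 0.25 (SD, n = 2 each). Ldha read 13.03 and 12.70 in the untreated clones and 11.77 and 11.76 after 2i. Its fall was by 1.11 (SE 0.20, limma adjusted p = 0.0429), a 2.15-fold drop, from 12.87 ± 0.24 to 11.76 ± 0.01, again without overlap. Both calls were lost when the clone was added as a replicate block, a term for 2B1 against 5C5 that is 0 for the ESC lines (adjusted p = 0.0551 for Slc2a3 and 0.0969 for Ldha) and when any one of the 4 compared arrays was left out (0.0639 to 0.199 and 0.0719 to 0.299).

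The partner carriers did not pass the test, although their arrays did not overlap. Slc2a1, which encodes the basal glucose transporter GLUT1, read 11.85 and 12.39 untreated and 10.97 and 10.57 after 2i (log2 difference -1.35, SE 0.29, limma adjusted p = 0.0627). Slc16a3, the lactate exporter MCT4, read 5.68 and 4.95 untreated and 3.93 and 3.98 after 2i (-1.36, adjusted p = 0.0586). Its 2i values lie below the median of the whole table, 5.42, and close to the arrays' 25th percentiles. It passed when the untreated 5C5 array was left out (adjusted p = 0.044). Slc16a1, the monocarboxylate carrier MCT1, differed by -0.38 (adjusted p = 0.42), from 12.12 and 11.69 to 11.66 and 11.39.

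Among the enzymes, Eno3, the enolase known from muscle, read 7.90 and 7.95 untreated and 8.76 and 8.68 after 2i (0.80, limma adjusted p = 0.0681). Pfkp, the platelet-type phosphofructokinase, read 10.68 and 10.46 untreated and 11.29 and 11.71 after 2i (0.93, adjusted p = 0.0901). A dimmer probe set of Pfkp gave 5.36 and 5.86 untreated and 8.19 and 8.22 after 2i, a log2 difference of 2.60 with an adjusted p of 0.0334 in the fit over probe sets, so the probe sets of this gene disagree on the call. With the mean of a gene's probe sets in place of the brightest, Pfkp passed (1.28, adjusted p = 0.0273). Pdk2, a kinase that shuts down pyruvate dehydrogenase, read 5.60 and 5.97 untreated and 4.93 and 4.67 after 2i (-0.98, adjusted p = 0.0728).

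In the pentose phosphate route, Rpia, which interconverts ribulose and ribose phosphates, had a log2 difference of -1.27 (limma adjusted p = 0.118), from 9.98 and 9.26 to 8.37 and 8.32. Taldo1, encoding transaldolase, had one of 0.96 (adjusted p = 0.199), from 11.36 and 10.55 to 12.01 and 11.82. Tkt and Pgd, the phosphogluconate dehydrogenase gene, differed by 0.39 and -0.17. So the 4 genes of this route held differences in both directions, and none passed. The hexokinases Hk1 and Hk2, which trap glucose in the cell, differed by -0.65 and -0.57 (adjusted p = 0.606 and 0.586), and the aldolase gene Aldoc by -0.88 (0.228). The spread behind the p-values of Hk1 and Hk2 includes their gaps between the ESC lines, of 1.95 and 1.45.

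ESCs against partial iPSCs gave a larger number of calls, both over all genes and here. Slc2a3 and Ldhb rose, and Pfkfb3, Ldha and Pdk2 fell. These were 5 of 28 members (17.9%), against 15.9% of all genes tested, again near the background. Pdk2 is among the 5, although it passed the filter on dim genes only through arrays of partial iPSCs. In the count by direction, 2 members were higher (6.09% of all genes) and 3 lower (9.82%), and 10 members had an unadjusted p below 0.05. The median log2 difference was -0.46 over the members and 0.00 over all genes. This comparison uses the same partial iPSC arrays as the one before, so the shared direction of Slc2a3 and Ldha is not independent.

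Slc2a3 read 13.41 in Nanog-GFP ESCs and 13.59 in EBRTcH3 ESCs, above both partial arrays (1.60, SE 0.22, limma adjusted p = 0.0115, 3.04-fold). It kept its call under every alternative tried (adjusted p = 0.0096 to 0.0457). Ldhb, the lactate dehydrogenase subunit known from heart and from lactate-using tissue, read 10.06 and 10.96 in the partial clones 2B1 and 5C5 and 12.16 and 12.64 in the ESC lines. All ESC values lay above all partial values (1.89, SE 0.39, adjusted p = 0.0353, 3.71-fold), with the partial mean at 10.51 ± 0.63 and the ESC mean at 12.40 ± 0.34 (SD, n = 2 each). Ldha read 11.97 and 11.91 in ESCs and fell by 0.93 (SE 0.20, adjusted p = 0.038), so the 2 subunits of the same enzyme moved in opposite directions.

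Pfkfb3, a bifunctional enzyme that makes the activator of phosphofructokinase, lay at 7.80 and 7.84 in untreated 2B1 and 5C5 and at 6.56 and 6.55 in the ESC lines, with 7.52 in MEFs. It fell by 1.26 (SE 0.17, limma adjusted p = 0.011, 2.40-fold). With the mean of its probe sets the difference was -0.52 (adjusted p = 0.109), so this call rests on the brightest probe set. Pdk2 fell by 0.99 (SE 0.23, adjusted p = 0.0441), from 5.60 and 5.97 to 4.89 and 4.70, values below the median of the table, as was its 5.36 in MEFs. Pdk2 was not tested under the stricter filter on dim genes.

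The calls of Pfkfb3, Ldha, Ldhb and Pdk2 were lost with only the 4 compared arrays (limma adjusted p = 0.0571, 0.122, 0.0837 and 0.119). Those of Ldha, Ldhb and Pdk2 were also lost with the clone as a replicate block (0.0808, 0.0744 and 0.0986) and with most single arrays left out. Leaving out either 2i array, which are not part of the comparison but of its estimate of spread, left only Slc2a3 called, since the fit then holds the 4 compared arrays alone in effect. Among members that did not pass, Pgam2, the muscle-type phosphoglycerate mutase, differed by 1.12 (adjusted p = 0.0677) and Rpia by -1.32 (0.0722). Tpi1, the triose phosphate isomerase gene, differed by -0.91 (0.0765) and Pfkp by 0.78 (0.0866). The dimmer probe sets of Pfkp gave 2.10 (0.0295) and 0.26 (0.414) in the fit over probe sets, so they disagree on the call here too. With the mean of probe sets Pfkp passed (1.05, adjusted p = 0.0257). Eno2, the enolase known from neurons, had the most negative value, -1.93 (SE 0.85, adjusted p = 0.188). It read 8.19 and 7.48 in the partial clones, 4.65 in Nanog-GFP ESCs and 7.15 in EBRTcH3 ESCs. Without the EBRTcH3 array, Eno2 differed by -3.18 (adjusted p = 0.0235) and Pgam2 passed as well (0.0267).

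The ESC lines were at least 2-fold apart in 6 members, 21.4% of the 28, against 15.8% of all genes tested. These were Hk1, Hk2, Pfkm, Eno2, Pdk1 and Pdk3. Hk1 read 9.77 in Nanog-GFP ESCs and 7.82 in EBRTcH3 ESCs, and Hk2 read 11.68 and 10.23. Pfkm, the muscle-type phosphofructokinase gene, read 9.53 and 8.09, and Pdk3, a pyruvate dehydrogenase kinase gene, read 9.78 and 8.20. Eno2 and Pdk1 went the other way, with Pdk1 at 9.28 and 10.83. Without the Nanog-GFP ESC array, Hk1 (-1.91, limma adjusted p = 0.0289), Pfkm (-1.54, 0.033), Pdk3 (-1.29, 0.0324) and Rpia (-1.72, 0.0438) passed against partial iPSCs, so the calls of these members differed with the ESC line read. Strain differs between the lines together with their origin. By contrast, 1 member (3.57%, against 10.6% of all genes) was 2-fold apart between the untreated clones, and 0 between the 2i arrays (against 1.73% of all genes).

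**Figure D2:**
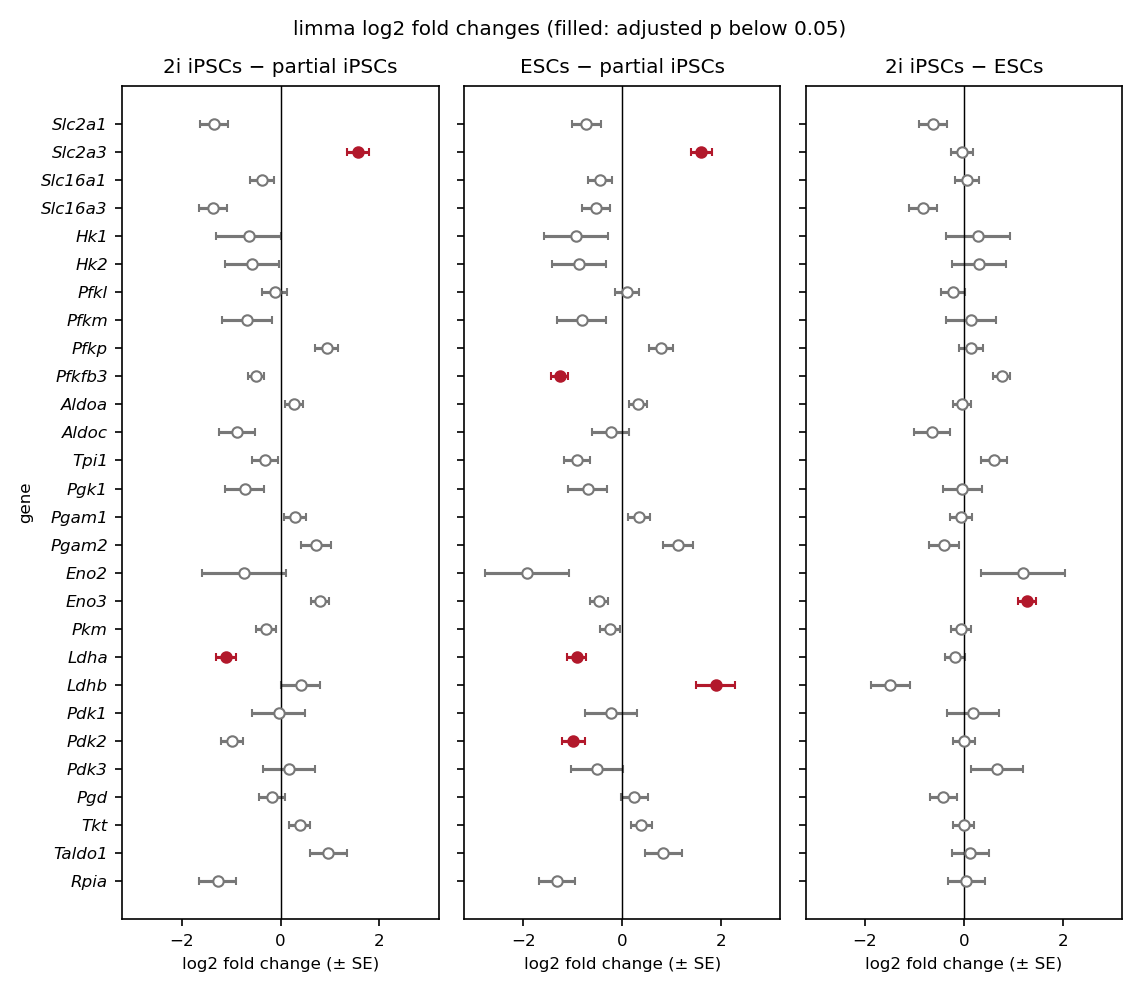
limma log2 fold changes (points) with standard errors (bars) of the 28 members in the 3 comparisons of groups with 2 arrays each; filled points had an adjusted p below 0.05. Filled points are Slc2a3 and Ldha for 2i iPSCs, Slc2a3, Pfkfb3, Ldha, Ldhb and Pdk2 for ESCs, and Eno3 for 2i iPSCs against ESCs.

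The third comparison set the 2i iPSCs directly against the ESCs. Eno3 was higher in 2i iPSCs, at 8.76 and 8.68 against 7.52 and 7.37 (1.27, SE 0.18, limma adjusted p = 0.0243, 2.42-fold). It was 1 of 28 members (3.57%), against 3.85% of all genes tested, and 4 members had an unadjusted p below 0.05. The call was lost with only the 4 compared arrays (adjusted p = 0.0507), with the replicate block (0.0897), and when any single array other than the Nanog-GFP ESC array was left out (0.0507 to 0.274). Eno3 is a gene of muscle. The summed log2 signal of 6 muscle markers was 28.7 to 30.0 in partial iPSCs, 34.5 to 35.2 in 2i iPSCs, 32.2 to 36.3 in ESCs and 38.9 in MEFs. Of these, Actn3 read 5.14 and 5.22 in partial iPSCs, 7.65 and 7.19 in 2i iPSCs, 7.99 and 7.32 in ESCs and 6.53 in MEFs. Myh3 read 4.05 and 4.20, 6.75 and 6.47, 6.47 and 4.79, and 7.73 in the same order. Des and Myog were highest in MEFs, at 8.83 and 5.95. The master regulator Myod1 stayed at 4.67 or less on all 7 arrays, and Ckm between 4.91 and 5.61. The part of muscle-type RNA in the result was not tested.

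Slc2a3 differed by -0.04 between 2i iPSCs and ESCs (SE 0.22, limma adjusted p = 0.954) and Ldha by -0.18 (SE 0.20, adjusted p = 0.727). Ldhb read 11.19 and 10.64 in 2i iPSCs, below both ESC lines, with a difference of -1.49 (SE 0.39, adjusted p = 0.144). Pfkfb3 read 7.33 and 7.32 in 2i iPSCs, between the partial and the ESC arrays, with a difference of 0.77 (SE 0.17, adjusted p = 0.094). Pdk2 differed by 0.00 (SE 0.23). For Slc2a3, Ldha and Pdk2 the difference between 2i iPSCs and ESCs was smaller than its SE. The 2i mean of Ldhb and Pfkfb3 lay between the partial and the ESC mean, and neither gene passed the test of 2i iPSCs against either group.

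**Figure D3:**
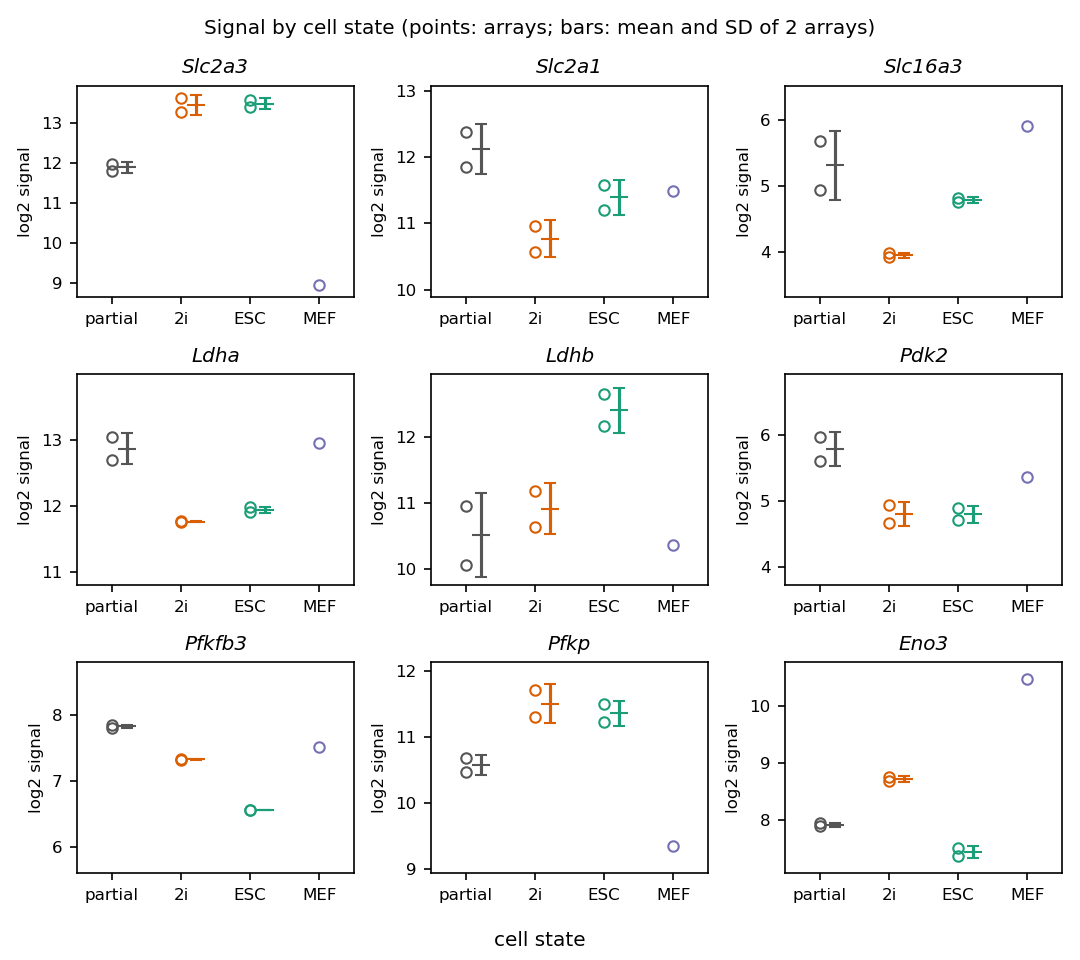
Log2 signal of 9 members on each state array (open points) with the mean and SD of the 2 arrays of a group (bars; MEFs have 1 array and no bar); axes differ between panels and do not start at 0. Slc2a3 lies at 13.28 to 13.64 on the 2i and ESC arrays, and Ldhb is highest in the ESCs, at 12.16 and 12.64.

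MEFs were measured once, so no test was possible, and a member was counted when it lay at least 2-fold beyond both arrays of a group. Against partial iPSCs this held for 8 of 28 members (28.6%), against 21.3% of all genes tested. Eno3 (10.46 in MEFs) and Pgd (12.36) were higher in MEFs. Hk2 (9.77), Pfkp (9.35), Aldoc (6.41), Pdk1 (8.10), Slc2a3 (8.93) and Slc16a1 (10.04) were lower. Eno3 stood 5.71-fold above the nearer partial array and Slc2a3 7.33-fold below it.

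Against 2i iPSCs the count was 10 (35.7%, against 28.3% of all genes), and against ESCs it was 9 (32.1%, against 30.6%). The MEF array serves all of these comparisons, so they are not independent. Slc2a3 was 20.4-fold below the nearer 2i array and 22.3-fold below the nearer ESC array, and Eno3 3.26-fold and 7.68-fold above. Pfkp, Pdk1 and Slc16a1 were also lower than both arrays of every group. Hk1 (10.32 in MEFs), Ldha (12.95) and Slc16a3 (5.90) exceeded both 2i arrays 2-fold, and Tpi1 (12.77) and Slc16a3 exceeded both ESC arrays. Aldoc and Ldhb (10.36) lay below both ESC arrays.

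Hk2 read 9.77 in MEFs, 12.05 and 11.61 in the partial clones, 11.63 and 10.89 after 2i, and 11.68 and 10.23 in Nanog-GFP and EBRTcH3 ESCs, so the EBRTcH3 line came nearest. Pdk1, a pyruvate dehydrogenase kinase gene and a known HIF target, read 8.10 in MEFs, 10.06 and 10.50 in the partial clones, 10.34 and 10.14 after 2i, and 9.28 and 10.83 in ESCs. Aldoc, the aldolase known from brain, read 6.41 in MEFs, 8.17 and 8.95 in the partial clones, 8.01 and 7.35 after 2i, and 8.17 and 8.48 in ESCs. Each of these 3 genes had its lowest state array in MEFs.

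Among the members higher in MEFs, Pgd read 12.36 in MEFs, 11.31 and 11.23 in the partial clones, 11.28 and 10.92 after 2i, and 11.79 and 11.23 in ESCs. Tpi1 read 12.77 in MEFs, 12.69 and 12.19 in the partial clones, 12.27 and 11.98 after 2i, and 11.67 and 11.38 in ESCs, an order in which MEFs and clone 2B1 were close. Pfkp and Slc16a1, lower in MEFs, read 11.22 and 11.49, and 11.59 and 11.32, in ESCs, and Slc16a3, which in MEFs exceeded the ESCs, read 4.82 and 4.76 there. Hk1 read 10.32 in MEFs, 10.04 and 9.42 in the partial clones, and 9.13 and 9.03 after 2i. Aldoa, Pfkl and Pkm had their highest state array in MEFs too, at 13.26, 9.17 and 13.05, but none lay 2-fold beyond both arrays of a group.

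Pgk1, on the X chromosome, read 13.98 in untreated 2B1, 12.96 in untreated 5C5, 12.48 and 13.00 after 2i, 12.68 and 12.87 in ESCs and 12.91 in MEFs. Untreated 2B1 stood above the other 6 arrays, and Pgk1 was the member 2-fold apart between the untreated clones.

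Ldha in MEFs, 12.95, lay between the partial clones at 13.03 and 12.70, and Ldhb in MEFs, 10.36, lay between theirs at 10.06 and 10.96. Slc2a1 in MEFs, 11.49, lay below both partial arrays and above both 2i arrays. The lactate dehydrogenase signals of partial iPSCs therefore overlapped the MEF value, while Slc2a3, Hk2, Pfkp, Pdk1 and Slc16a1 in partial iPSCs lay away from it.

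Isoenzyme balance was followed as the log2 signal of one gene minus that of its partner on the same array, set to 0 at the mean of the partial clones. Only the shift of this ratio is given, because signals of different probe sets cannot be compared as levels. With 2 arrays a group an exact permutation test cannot reach 0.05, so no test was made, and the planned pairs with Eno1 could not be formed. Of 10 pairs, the glucose transporters shifted most between partial and 2i iPSCs. Slc2a3 over Slc2a1 stood at 2.90 in clone 2B1 and 2.93 in 5C5 after 2i, at 2.04 and 2.61 in Nanog-GFP and EBRTcH3 ESCs, and at -2.34 in MEFs.

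Ldhb over Ldha stood at 1.78 and 1.24 on the 2i arrays of 2B1 and 5C5, at 2.55 and 3.09 in the ESC lines, at -0.23 in MEFs, and at -0.62 and 0.62 in the partial clones themselves. The pluripotent arrays did not overlap the partial ones. Pfkp over Pfkl, the liver-type phosphofructokinase, stood at 0.69 and 1.42 after 2i, 0.33 and 1.05 in ESCs and -2.09 in MEFs. Aldoc over Aldoa, and Hk2 over Hk1, were lowest in MEFs, at -2.77 and -2.65. Hk2 over Hk1 overlapped between partial iPSCs, 2i iPSCs and ESCs (mean shifts of 0.08 and 0.06), and both genes were lower in the EBRTcH3 line than in the other. Slc16a3 over Slc16a1 stood at 2.45 in MEFs, -1.14 and -0.82 after 2i, and -0.18 and 0.02 in ESCs.

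**Figure D4:**
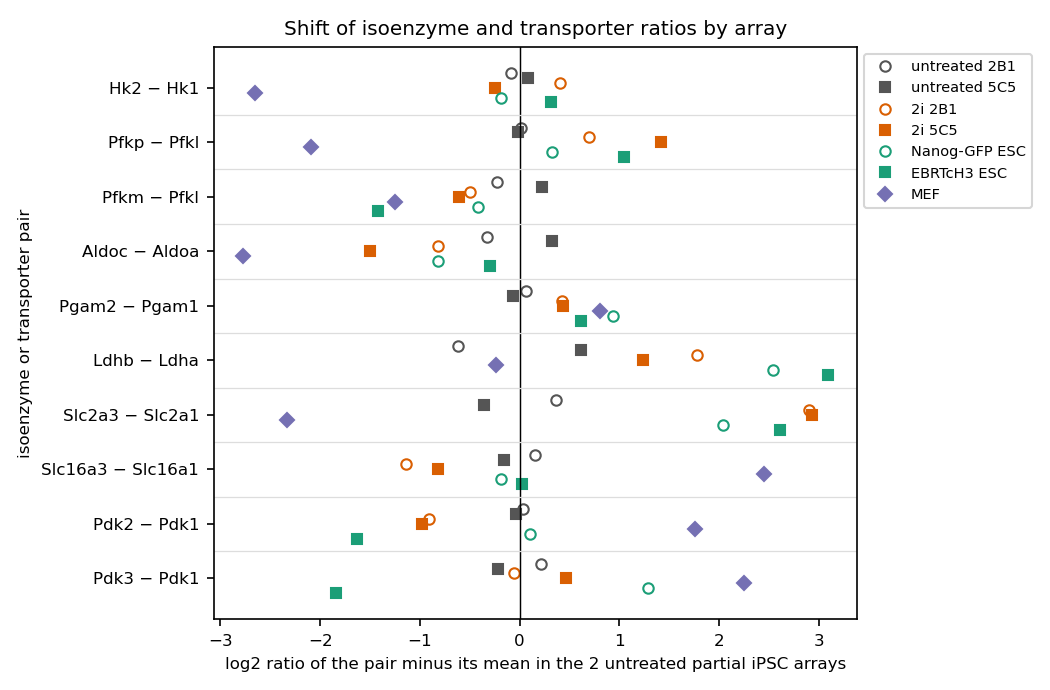
Shift of 10 isoenzyme or transporter ratios (rows) on the 7 state arrays, as log2 of the first gene minus log2 of the second, relative to the mean of the 2 untreated partial iPSC arrays; 1 point is 1 array. Slc2a3 over Slc2a1 lies between 2.04 and 2.93 on the 4 pluripotent arrays and at -2.34 in MEFs.

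The transduced arrays were each compared with the single empty vector array, which all 6 comparisons share, so nothing here has a replicate. At 2-fold, the array labelled Cnot1 had 3 members apart (10.7%, against 10.0% of all genes), that labelled Cnot2 had 2 (7.14%, against 6.75%), Cnot3 had 0 (7.68%), the array with all 3 Cnot genes had 5 (17.9%, against 12.1%), Trim28 had 1 (3.57%, against 2.49%) and Nanog had 1 (3.57%, against 1.43%). Ldhb was 2-fold apart on 4 of the 6 arrays, Eno2 and Aldoc on 2 each. Ldhb read 10.16 with empty vector, 8.85 on the Cnot1 array, 8.88 on the Cnot2 array and 8.83 on the array with all 3, and 11.20 on the Nanog array. It read 9.55 and 9.42 on the Cnot3 and Trim28 arrays.

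Eno2 read 6.81 with empty vector, 8.20 on the Cnot1 array and 7.98 on the Cnot2 array, and 8.19 in untreated 2B1 cells, which belong to the other set of arrays. Aldoc read 9.92 with empty vector, 8.20 on the array with all 3 Cnot genes and 8.42 on the Trim28 array, and 8.17 in untreated 2B1. For both genes the empty vector array lay further from untreated 2B1 than the arrays just named. Slc2a1 read 12.27 with empty vector and 11.17 on the Cnot1 array. On the array with all 3 Cnot genes, Tpi1 read 13.05 against 12.04 and Slc16a3 6.69 against 5.50. Pdk2 read 4.02 there against 5.85 with empty vector.

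At 1.5-fold in either direction, the counts on the arrays labelled Cnot1, Cnot2, Cnot3, all 3 Cnot genes, Trim28 and Nanog were 7, 6, 9, 14, 6 and 1 of 28, against 23.7%, 17.1%, 18.9%, 27.2%, 9.86% and 5.13% of all genes. The array labelled Cnot3 had 6 members higher (21.4%, against 7.15% of all genes) and 3 lower (10.7%, against 11.8%). The array with all 3 Cnot genes had 8 higher (28.6%, against 11.1%) and 6 lower (21.4%, against 16.2%). Tpi1, Pgk1, Eno2, Pkm and Slc16a3 were in both higher groups, with Tpi1 0.81 and 1.01, Pgk1, the phosphoglycerate kinase gene, 0.62 and 0.72, and Pkm, the pyruvate kinase gene, 0.68 and 0.73 above empty vector. Slc2a3 was also in the Cnot3 group (0.72), and Pfkl, Pgam1 and Ldha (0.93, 0.69 and 0.72) in that of all 3. The median over the 28 was 0.35 and 0.33 on these arrays, against -0.01 over all genes on both. The medians on the Cnot1, Cnot2, Trim28 and Nanog arrays were -0.05, 0.00, -0.07 and 0.01. On the Cnot1 and Cnot2 arrays these 5 were also above empty vector, by 0.21 and 0.07 for Tpi1, 0.65 and 0.52 for Pgk1, 1.39 and 1.17 for Eno2, 0.13 and 0.02 for Pkm and 0.29 and 0.08 for Slc16a3. Eno2 was thus further from empty vector there than on the 3-gene array (0.80), and Tpi1, Pkm and Slc16a3 were nearer. Gapdh, read from control probe sets, ranged from 13.58 with empty vector to 13.98 with all 3 Cnot genes over the 7 transduced arrays. For every gene named in both higher groups or in 1 of them, empty vector read below untreated 2B1, which belongs to the other set of arrays. Untreated 2B1 read 12.69 for Tpi1, 13.98 for Pgk1, 12.57 for Pkm, 12.14 for Pgam1 and 13.03 for Ldha. With empty vector these genes read 12.04, 13.29, 11.77, 11.53 and 12.47. The cause was not tested.

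Marker genes of other cell types differed between these arrays. Krt8, an epithelial keratin listed among 6 trophoblast markers, read 10.41 with empty vector, 5.43 in untreated 2B1 cells, 6.73, 8.13 and 8.29 on the Cnot1, Cnot2 and Cnot3 arrays, 4.70 with all 3, 8.92 with Trim28 and 9.06 with Nanog. Eomes read 7.64 with empty vector and between 3.42 and 10.63 on the other 6. Cdx2, Elf5 and Hand1, also among the 6, stayed between 2.81 and 4.80 on all 7, below the table median. Tfap2c was lowest with empty vector, at 6.52, and read 8.43, 8.47, 8.26 and 8.51 on the Cnot1, Cnot2, Cnot3 and 3-gene arrays, 7.49 with Trim28 and 6.80 with Nanog. The summed signal of the 6 markers was 36.2 with empty vector and 29.9 to 38.9 on the factor arrays. The summed signal of 12 fibroblast markers was 80.8 with empty vector and 82.1, 83.1, 83.5, 89.0, 84.6 and 82.5 on the Cnot1, Cnot2, Cnot3, 3-gene, Trim28 and Nanog arrays. That of 6 neural markers was 42.5 with empty vector and 35.4, 38.7, 38.4, 37.5, 42.9 and 42.7 in the same order. That of 6 endoderm markers was 24.6 with empty vector and 23.6 to 25.5 on the factor arrays. The part of such cells in the results was not tested.

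**Figure D5:**
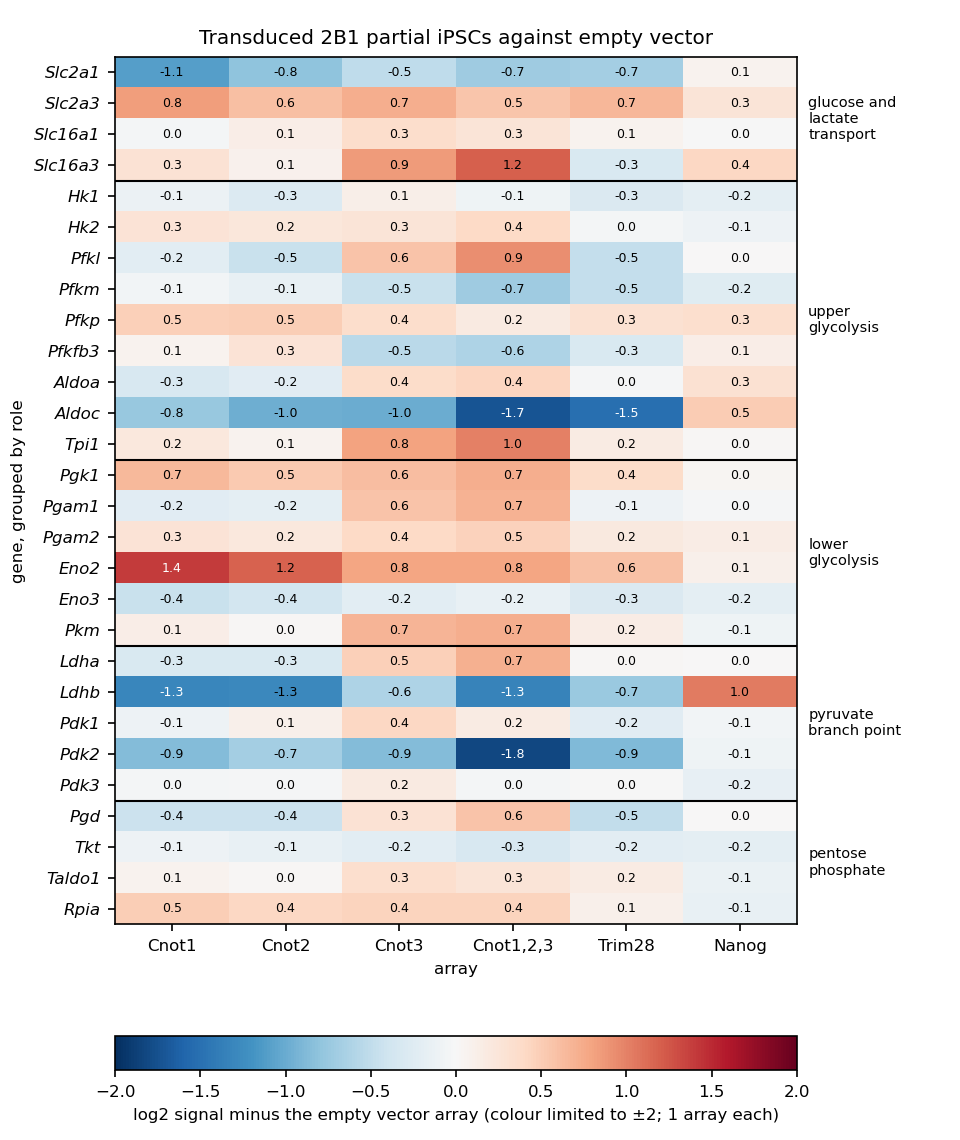
Log2 signal of the 28 members (rows, grouped by role) on the 6 arrays of 2B1 partial iPSCs with an introduced factor, each minus the empty vector array; 1 array per column and no replicate, colour limited to 2 in either direction. Ldhb differs by -1.31, -1.28 and -1.33 on the Cnot1, Cnot2 and 3-gene arrays and by 1.03 on the Nanog array.

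The difference of Ldhb from empty vector was -1.31, -1.28 and -1.33 on the arrays labelled Cnot1, Cnot2 and all 3 Cnot genes, where 2i iPSCs had differed from partial iPSCs by 0.40 and ESCs by 1.89. Slc2a3 was above empty vector on all 6 arrays, by 0.25 to 0.84, with the smallest difference on the Nanog array. Slc2a1 was below empty vector on 5 of the 6, with differences of -1.10 to -0.51, and 0.07 above it on the Nanog array. The ratio of Slc2a3 to Slc2a1 thus shifted by 1.94, 1.42, 1.23, 1.25, 1.35 and 0.18 on the Cnot1, Cnot2, Cnot3, 3-gene, Trim28 and Nanog arrays. All 6 ratios rest on the same empty vector array, which read 10.95 for Slc2a3 and 12.27 for Slc2a1. Untreated 2B1, in the other set of arrays, read 11.99 and 11.85. Its ratio was thus also above that of empty vector, and the part of the empty vector array in these shifts was not tested.

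A list of 49 other genes of the pathways, of which 38 were tested, gave the setting for these results. Its median log2 difference was -0.02 after 2i and 0.07 in ESCs. After 2i, 2 of 38 rose and 0 fell (5.26%, against 6.00% of all genes). Pdk4, another pyruvate dehydrogenase kinase, read 3.31 and 3.33 in partial clones and 5.70 and 4.80 after 2i (1.93, limma adjusted p = 0.0362), and Slc16a6, a carrier of the monocarboxylate family, rose by 1.34 (adjusted p = 0.0275). In ESCs 2 rose and 2 fell (10.5%, against 15.9%). Pdk4 rose by 3.31 and Rpe, the epimerase next to Rpia in the pentose phosphate route, by 1.40. Pfkfb4, a relative of Pfkfb3, fell by 1.18, and the glucose transporter gene Slc2a6 by 2.18. Between 2i iPSCs and ESCs, limma called 0 of 38, with 5 at an unadjusted p below 0.05. Pdk2 and Pdk4, kinases of the same complex, thus moved in opposite directions in ESCs, and the partial iPSC values of Pdk4 lie near the bottom of the signal range.

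Of 23 genes known to respond to oxygen through HIF, which also drives many glycolytic genes, 21 were tested. After 2i, 1 rose and 2 fell (14.3%, against 6.00% of all genes), and in ESCs 0 rose and 4 fell (19.0%, against 15.9%, and 9.82% for lower alone). Egln3, a prolyl hydroxylase that marks HIF for decay and is itself a HIF target, read 9.23 and 8.33 in partial clones, 5.99 and 6.14 after 2i, and 6.77 and 7.32 in ESCs, and fell by 2.72 and 1.74. Car12, a carbonic anhydrase, fell by 2.33 and 2.60, and the related Egln1 and the collagen hydroxylase gene P4ha1 fell in ESCs by 1.24 and 1.22. P4ha2 rose by 1.39 after 2i and was 1.75 higher in 2i iPSCs than in ESCs, the only one of the 21 called there, with 3 at an unadjusted p below 0.05. The median of the 21 was -0.25 after 2i and -0.36 in ESCs, against 0.03 and 0.00 over all genes.

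Of 18 regulators known to act on these pathways, 16 were tested. By brightest probe set, 2 were up and 2 down after 2i (4 of 16, against 6.00% of all genes). In ESCs, 4 were up and 2 down (6 of 16, against 15.9%). Mycn is in both counts as down, although its probe sets disagree in sign. Esrrb and Lin28a are also among the 8 pluripotency markers used above to describe the cell states. The list was chosen with earlier results of these data known, so these shares are no support. The median difference was 0.14 after 2i and -0.0048 in ESCs. Myc, a driver of Ldha and of glucose transport in many cells and one of the usual reprogramming transgenes, read 11.96 and 12.34 in partial clones, 8.24 and 8.64 after 2i, 7.92 and 7.81 in ESCs and 8.80 in MEFs. It fell by 3.71 after 2i and by 4.29 in ESCs. The array cannot tell transgene from endogenous transcript where they share sequence. Esrrb, a nuclear receptor of pluripotent cells, rose by 2.92 and 3.49, and the RNA-binding protein gene Lin28a by 6.44 and 7.48. Lin28a reached the filter level only on 2i and ESC arrays. Its dimmer probe set gave 1.83 after 2i (limma adjusted p = 0.109) and 3.16 in ESCs (0.017). In ESCs the glucose-sensing factor gene Mlxipl rose by 1.60 and the oxidative stress factor gene Nfe2l2 by 1.35. A dimmer probe set of Nfe2l2 gave 0.36 there (0.47), so its probe sets disagree on the call. The brightest probe set of Mycn fell by 1.87 and 8.19, while its other 2 rose by 1.95 and 1.33 after 2i and by 2.58 and 2.08 in ESCs, so no direction is given for Mycn. Hif1a, the oxygen-regulated subunit of HIF, differed by 0.40 after 2i and by -0.02 in ESCs and did not pass.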

How the data were processed

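The deposited values are log2 signals per probe set. The submitters' processing notes name RMA and affy, without versions. Sorted values agreed within each set of 7 arrays (median range 0.085 and 0.096) better than over all 14 (0.318), so the sets were treated as normalized apart. No column was left out, and array precision is limited by the number of arrays.

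Of 45101 probe sets, 34945 had 1 gene, 932 several and 9160 none, and 64 were controls; 34741 matched RefSeq (GRCm38.p6). Each gene was read from its brightest probe set. A gene was tested where 2 or more arrays reached the table median of 5.42. The 3 groups of 2 arrays were fitted with limma 3.58.1 in R 4.3.3 (6 arrays, 3 residual and 2.25 prior degrees of freedom; checked on simulated data), with two-sided p-values adjusted by Benjamini-Hochberg over 12663 genes and a threshold of 0.05. MEF and transduced arrays, 1 each, have no test, and a 2-fold difference was counted. All 32 members are named by rule, with every state array for those called or 2-fold apart in MEFs. Genes called from the further lists (49 pathway, 23 oxygen and 18 regulator genes) are named too. The members and lists were chosen with earlier results of these data known.

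The untreated and 2i arrays of a clone come from the same cells and pair by origin. Their deviations from the group means had a correlation of 0.111 over 12663 genes. Alternatives were median centring, quantile normalization, other filters and thresholds, the mean of probe sets, the 4 compared arrays, a replicate block, arrays left out and, chosen after seeing the data, untreated 2B1 as control with median-centred arrays. Marker lists of neural and blood cells were read as well. Over the state arrays the summed log2 signal of 6 neural markers was 38.3 to 46.3 in partial iPSCs, 39.7 in 2i iPSCs, 40.6 to 42.7 in ESCs and 34.1 in MEFs, and that of 5 blood markers 24.1 to 27.0.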

Additional observations from a re-analysis of the deposited data

Results flagged for a closer look

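In 4 of the 28 members the 2i array lay above the untreated array in one clone and below it in the other, which was true of 14.3% of the members and 26.2% of all genes tested. The difference between the clones was not tested, because each clone has 1 array per state. For Pgk1 the log2 difference of 2i minus untreated was -1.50 in clone 2B1 and 0.0362 in 5C5. For Ldhb it was 1.12 in 2B1 and -0.32 in 5C5. For Pdk1 it was 0.27 and -0.35, and for Pdk3 -0.0047 and 0.33, in the same order of clones.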

How the results depend on the processing

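Among the called members, counts and ratios recomputed under these alternatives, none changed sign. Single probe sets did differ in sign for Mycn, and for Pdk1 in 2i iPSCs minus ESCs (-0.09 to 0.32). With 2 arrays a group, most calls lay close to the threshold. The number of members called for 2i iPSCs minus partial iPSCs was 2, fell to 0 with the clone as a replicate block, and ranged from 0 to 2 with single arrays left out. For ESCs minus partial iPSCs it was 5, with 1 on the 4 compared arrays, 2 with the replicate block, and 1 to 6 with single arrays left out. For 2i iPSCs minus ESCs it was 1, with 0 on the 4 compared arrays, 0 with the replicate block, and 0 to 2 with single arrays left out. Fewer arrays or residual degrees of freedom enter these fits. A group left with 1 array is assumed there to vary like the others. Leaving out untreated 2B1, untreated 5C5 or either 2i array gave 2, 3, 1 and 1 for ESCs minus partial iPSCs. The block ended 6 calls and kept those of Slc2a3 and Pfkfb3 in ESCs. Median centring, quantile normalization and the filters kept the 3 counts within 1.5 times. The mean of a gene's probe sets gave 5 in place of 8 members for MEFs against partial iPSCs, 3 in place of 5 for the array with 3 Cnot genes, and 0 in place of 1 for Trim28. A 1.5-fold threshold gave 7, 6, 9, 14 and 6 members on the Cnot1, Cnot2, Cnot3, 3-gene and Trim28 arrays. Untreated 2B1 as control with each array centred on its median, chosen after seeing the data and across the 2 sets of arrays, gave 1, 3, 0 and 3 on the Cnot2, 3-gene, Trim28 and Nanog arrays, and the cause was not tested. With the mean of probe sets, the ratio of Slc2a3 to Slc2a1 shifted by 2.85 in place of 2.33 in ESCs, and that of Pdk2 to Pdk1 by -0.83 in place of -0.94 after 2i. The 2i signals of Slc16a3 and Pdk2 lie below the table median, and no detection call was used.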
